A study of Homo sapiens with 6 samples.

Results

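Frizzled receptors are the cell-surface receptors of the WNT proteins, and human cells carry 10 genes for them, FZD1 to FZD10. All 10 were measured on these arrays, by 1 transcript cluster (the set of probes summarized to 1 value) each, among 14884 named genes. Within the table the members were picked by gene symbol, and the family was chosen with earlier results of these data known. RNA came from D283, a long-established human medulloblastoma line, kept as tumorspheres, free-floating clusters in low-attachment plates, in medium with the growth factors EGF and bFGF. In 3 cultures the homeobox transcription factor OTX2 had been targeted by 1 siRNA (OTX2 KD), and 3 received a scramble siRNA that silences no gene. The question was how the receptors' RNA differs once OTX2 is reduced. The comparison rests on 1 cell line and 1 siRNA, and effects of that siRNA on other transcripts cannot be told apart from those of OTX2. The study's methods call the 3 arrays of each group biological replicates.

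OTX2 itself was at 9.62, 9.57 and 9.57 log2 units in OTX2 KD and at 10.56, 10.56 and 10.55 in scramble (log2 fold change -0.97 ± 0.073, SE, adjusted p = 8.7e-05). All 3 knockdown arrays lay below all 3 controls, with RNA reduced 1.96-fold rather than abolished. Of 12 listed markers of Group 3 and Group 4 medulloblastoma 9 were measured, and in scramble OTX2, MYC, IMPG2, NPR3 and CRX each lay above at least 94.7% of all clusters, whereas EOMES lay above only 43.6% to 50.8%. After knockdown 6 of the 9 fell and 2 rose (BARHL1 and UNC5D), beside 23.2% and 16.6% of named genes. The summed linear level of the 9 was 1849 to 2005 in OTX2 KD and 4674 to 4736 in scramble. Both the 6 and the sum include OTX2, the target of the siRNA itself. The part of these markers in the Frizzled changes was not tested. Array medians ranged from 3.67 to 3.71 in OTX2 KD and from 3.60 to 3.61 in scramble, so that they did not overlap. Correlations across clusters, which are not independent replicates, ranged from 0.990 to 0.993 within groups and from 0.959 to 0.965 between groups.

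A Frizzled receptor spans the membrane as a bundle of helices and binds WNT through a cysteine-rich domain outside the cell. With the coreceptor LRP5 or LRP6 it recruits Dishevelled and stabilizes beta-catenin, which then acts in the nucleus with TCF/LEF factors. With other partners it controls planar cell polarity, the orientation of cells within a tissue, or calcium release. WNT signaling patterns the midbrain and hindbrain, and its mutational activation defines the WNT subgroup of medulloblastoma, which is distinct from Groups 3 and 4. By sequence the family falls into FZD1, FZD2 and FZD7, FZD5 and FZD8, FZD4, FZD9 and FZD10, and FZD3 and FZD6.

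Most Frizzled receptors were lower after OTX2 knockdown, and FZD7 lost by far the most RNA. Of the 10 genes 6 fell (FZD7, FZD1, FZD5, FZD2, FZD9 and FZD4), 1 rose (FZD6) and 3 did not pass the test (FZD8, FZD3 and FZD10) at an adjusted p below 0.05 (limma, adjusted over all 53617 clusters). The share that fell was 60.0%, where 13.1% of all clusters and 23.2% of named genes fell. Among named genes at or above the median level of all clusters, a description of brighter genes, 31.3% fell. The 1 receptor of 10 that rose stands beside 14.8% of all clusters, 16.6% of named genes and 21.0% of the brighter ones. In either direction 7 of 10 changed, beside 27.9%, 39.8% and 52.2%. With at least 2-fold change as well, 3 Frizzled receptors (FZD7, FZD1 and FZD5) were lower and 0 higher, beside 3.62% of all clusters, 6.89% of named genes and 9.47% of the brighter ones for lower, and 3.12%, 3.82% and 5.21% for higher. At that 2-fold limit an unadjusted p below 0.05 also gave 3 lower and 0 higher. FZD5 was 2.19-fold lower, just inside the limit, and FZD2 was 1.99-fold lower, just outside it.

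The log2 fold change was negative for 9 of the 10 receptors, against 49.7% of named genes, and its median was -0.39 against 0.00 for named genes. The 3 knockdown values lay below all 3 control values for 8 receptors, beside 18.4% of all clusters, 30.6% of named genes and 39.7% of the brighter ones. They lay above them for FZD6, beside 23.5%, 24.9% and 29.0%, and overlapped them for FZD10. In RNA from whole cultures, fewer cells with a transcript and less of it in each cell cannot be told apart.

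**Figure D1:**
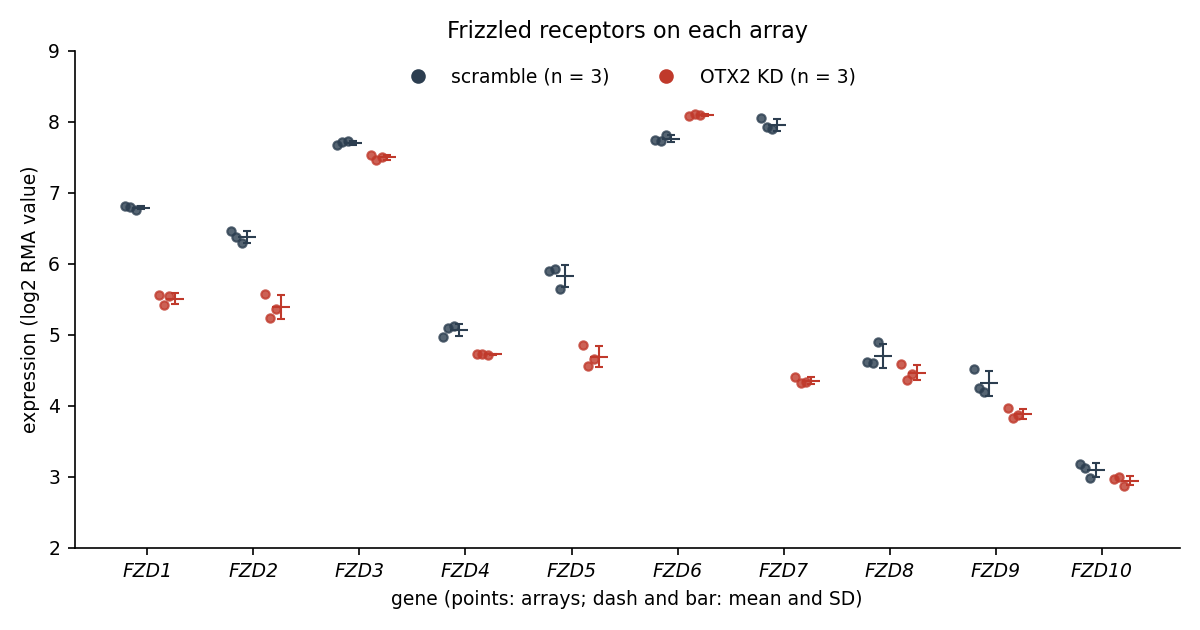
Log2 RMA value (vertical axis) of each Frizzled receptor on the 3 scramble and 3 OTX2 KD arrays, with a dash for the group mean and a bar for the SD. FZD7 dropped from between 7.89 and 8.06 to between 4.32 and 4.41, FZD6 was the receptor whose knockdown arrays lay above its controls, and heights are comparable within a gene but not between genes.

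FZD7 is a receptor of pluripotent stem cells and of progenitors in several tissues. It was at 4.41, 4.32 and 4.33 in OTX2 KD and at 8.06, 7.93 and 7.89 in scramble. The groups were separated by 3.49 log2 units, with an SD of 0.047 in OTX2 KD and 0.085 in scramble (n = 3 each). The log2 fold change was -3.61 ± 0.083 (SE, 95% confidence interval -3.80 to -3.41), a 12.2-fold decrease (adjusted p = 2.55e-06). Only 11 clusters of the 53617 and 1 of the 14884 named genes had a lower log2 fold change. FZD7 lay above 94.0% to 94.7% of clusters on the scramble arrays and above 60.6% to 62.1% on the knockdown arrays. With any 1 array left out its log2 fold change stayed between -3.64 and -3.56.

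The genes whose values moved most like those of FZD7 were PBK, TRIM38 and LINC00934. Likeness was the root mean square difference over the 6 arrays, after each gene was set to its scramble mean, and it was 0.157, 0.184 and 0.185 log2 units. PBK, a mitotic kinase, ran from 3.91 to 4.28 in OTX2 KD and from 7.60 to 7.76 in scramble (log2 fold change -3.59 ± 0.113, SE). TRIM38, a ubiquitin ligase of innate immune signaling, was 10.3-fold lower, and the noncoding RNA LINC00934 was 10.8-fold lower. All 3 were picked for this likeness, so that their folds are a description.

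FZD1 and FZD2, the closest relatives of FZD7, also fell, but by much less. FZD1 was at 5.56, 5.42 and 5.55 in OTX2 KD and at 6.81, 6.80 and 6.76 in scramble. Its log2 fold change was -1.28 ± 0.080 (SE), a 2.43-fold decrease (adjusted p = 3.88e-05). FZD2, a receptor known for WNT5A signaling that does not use beta-catenin, was at 5.57, 5.23 and 5.36 against 6.46, 6.38 and 6.30. The FZD2 log2 fold change was -0.99 ± 0.110 (SE, adjusted p = 0.000512), and a test against a 1.5-fold limit gave adjusted p = 0.0552. For both genes every knockdown array was below every control array, by at least 1.21 log2 units for FZD1 and 0.72 for FZD2.

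FZD5 fell and its close relative FZD8 did not pass. FZD5, required for eye development in vertebrates, was at 4.85, 4.56 and 4.66 in OTX2 KD and at 5.89, 5.93 and 5.64 in scramble. The log2 fold change of FZD5 was -1.13 ± 0.117 (SE, adjusted p = 0.00037). FZD8 was at 4.59, 4.37 and 4.45 against 4.61, 4.61 and 4.90. The FZD8 values were separated by only 0.02 log2 units, and the log2 fold change was -0.24 with a 95% confidence interval from -0.51 to 0.02 (adjusted p = 0.166).

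Promoter sequences are shown for FZD1 and FZD5 because both fell at least 2-fold, together with FZD7, in cells with reduced OTX2. They run from 250 bases before to 50 bases after the gene's start, are RefSeq's (GRCh38.p14), and are written 5′ to 3′ in the direction of transcription. Capitals mark matches to TAATC, read on either strand, the part that the OTX2 sites TAATCC and TAATCT share. FZD1 lies at chr7:91264183-91264482 (plus strand) and FZD5 at chr2:207769857-207770156 (minus strand).
FZD1: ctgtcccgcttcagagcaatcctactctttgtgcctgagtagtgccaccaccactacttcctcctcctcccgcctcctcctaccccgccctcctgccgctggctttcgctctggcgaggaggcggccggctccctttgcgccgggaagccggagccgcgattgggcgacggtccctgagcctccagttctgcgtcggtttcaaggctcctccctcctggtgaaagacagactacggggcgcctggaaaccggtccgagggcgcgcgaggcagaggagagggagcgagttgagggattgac
FZD5: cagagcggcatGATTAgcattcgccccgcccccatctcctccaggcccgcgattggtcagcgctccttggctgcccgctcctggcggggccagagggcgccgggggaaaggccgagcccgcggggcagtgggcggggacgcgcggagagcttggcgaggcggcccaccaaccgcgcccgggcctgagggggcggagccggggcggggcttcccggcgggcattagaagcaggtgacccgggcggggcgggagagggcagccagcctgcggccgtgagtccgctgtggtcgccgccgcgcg
FZD5 held 1 match to TAATC, 239 bases before the start and on the opposite strand, and FZD1 held 0. A promoter was at hand for 5 receptors (FZD1, FZD4, FZD5, FZD8 and FZD9), and 0 of these held TAATCC or TAATCT on either strand. Of all 35116 promoters of the same length 6.36% held TAATCC, 7.17% held TAATCT and 19.8% held TAATC. G and C made up 65.7% to 79.7% of the 5 receptor promoters, and these shares were not matched for that. A match is a description of the letters, and no match says only that they are not in this window. FZD2, FZD3, FZD6, FZD7 and FZD10 were not searched here.

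FZD4, FZD9 and FZD10 changed little. FZD4, which also binds the non-WNT ligand Norrin and is needed for retinal blood vessels, was at 4.73, 4.73 and 4.71 in OTX2 KD and at 4.97, 5.10 and 5.13 in scramble (log2 fold change -0.34 ± 0.081, SE, adjusted p = 0.0179). FZD9, a gene of the region deleted in Williams syndrome, was at 3.96, 3.82 and 3.87 against 4.51, 4.24 and 4.19 (-0.43 ± 0.108, SE, adjusted p = 0.0225). Knockdown and control arrays did not overlap for either gene, but neither fall was past the threshold in every subset of arrays. For FZD4 the adjusted p was 0.0505 without OTX2 KD replicate 1, 0.0534 without OTX2 KD replicate 3, 0.0651 without scramble replicate 2 and 0.0615 without scramble replicate 3. For FZD9 it was 0.0714 without OTX2 KD replicate 2 and 0.0628 without OTX2 KD replicate 3. FZD10 was dim, below the median of every array, at 2.97, 3.00 and 2.87 against 3.18, 3.13 and 2.99. The FZD10 log2 fold change was -0.15 (95% confidence interval -0.36 to 0.05, adjusted p = 0.254), and signal over background was not measured.

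FZD3 and FZD6, which act in planar cell polarity and together in neural tube closure in mice, lay above 92.1% of clusters on every array, and only FZD6 passed the test. FZD6 was at 8.08, 8.11 and 8.10 in OTX2 KD and at 7.74, 7.73 and 7.81 in scramble. Its log2 fold change was 0.34 ± 0.075 (SE), a 1.26-fold increase (adjusted p = 0.0139). The call of FZD6 ended when each array was centered on its median (log2 fold change 0.25, adjusted p = 0.0513) and without scramble replicate 2 (0.32, adjusted p = 0.0542). FZD3, a receptor needed for the guidance of several axon tracts in mice, was at 7.53, 7.46 and 7.50 against 7.67, 7.71 and 7.73. All 3 FZD3 knockdown values were below the controls, but the log2 fold change of -0.21 did not pass (adjusted p = 0.0855). It did pass in 4 alternatives, with adjusted p = 0.0296 after median centering, 0.0277 over brighter clusters alone, 0.0359 over clusters with a symbol alone and 0.0178 with trend and robust variance.

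**Figure D2:**
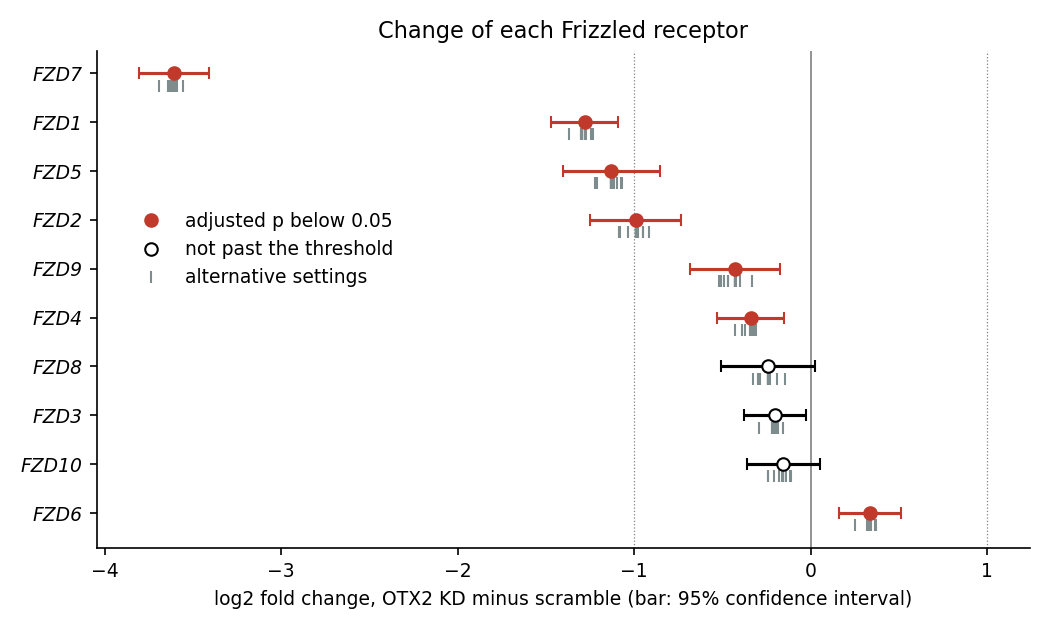
Log2 fold change of each Frizzled receptor (OTX2 KD minus scramble, horizontal axis) with its 95% confidence interval, filled where the adjusted p was below 0.05, and with a tick below it for each alternative setting. FZD7 at -3.61 stands apart from FZD1, FZD5 and FZD2, which lie between -1.28 and -0.99, and the other 6 receptors lie between -0.43 and 0.34.

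Whether relatives changed unequally was asked from the log2 difference between them on the same array. The sign of such a difference has no meaning between different probes, and only its shift between the groups is read. In 8 pairs of relatives, 6 had differences that did not overlap between the groups. Single named genes did not overlap in 30.6% (lower) and 24.9% (higher) of cases, the share for other pairs of genes was not computed, and the count is not read as particular to relatives. The difference FZD7 minus FZD1 was -1.15, -1.10 and -1.22 in OTX2 KD and 1.24, 1.13 and 1.13 in scramble. FZD7 therefore fell 5.01-fold more than FZD1 on the same arrays. FZD7 minus FZD2 shifted by -2.61 log2 units and FZD1 minus FZD2 by -0.29.

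In the other subfamilies FZD5 minus FZD8 shifted by -0.89 log2 units, although scramble replicate 3 (0.74) lay closer to the knockdown arrays (0.20 to 0.26) than the other controls (1.28 and 1.32). FZD3 minus FZD6 shifted by -0.54, from between -0.09 and -0.02 in scramble to between -0.65 and -0.55 in OTX2 KD. FZD9 minus FZD10 shifted by -0.28. Each of these 6 pairs had p = 0.1 in an exact two-sided permutation test (n = 3 against 3), which is the smallest p this design allows, and 0.133 after Benjamini-Hochberg adjustment over the 8 pairs. FZD4 minus FZD9 (0.09, exact p = 0.9) and FZD4 minus FZD10 (-0.19, exact p = 0.2) overlapped between groups.

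**Figure D3:**
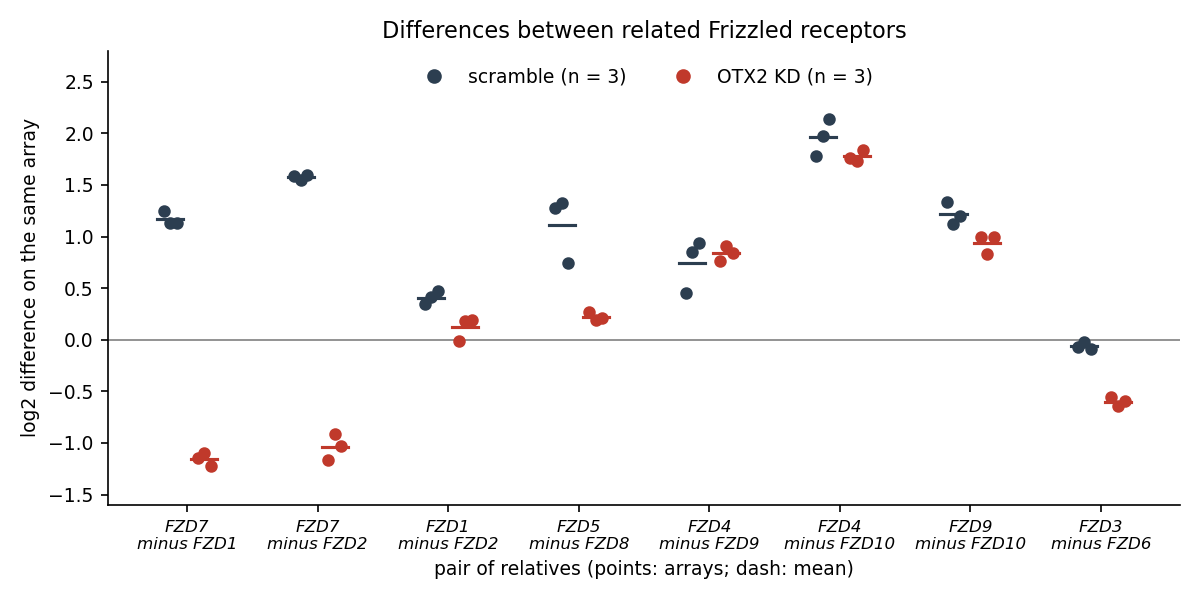
Log2 difference between 2 related Frizzled receptors on the same array (vertical axis) for the 3 scramble and 3 OTX2 KD arrays, with a dash for the mean. The FZD7 differences shifted by -2.33 (against FZD1) and -2.61 (against FZD2), whereas FZD4 minus FZD9 and FZD4 minus FZD10 overlapped.

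Genes that act with the Frizzled receptors were followed through lists by role, with 88 of 158 genes measured by a named cluster. Of these 88 genes 21 (23.9%) fell, 18 (20.5%) rose and 49 did not pass, and their median log2 fold change was 0.03. These shares are close to the 23.2% and 16.6% of named genes. With at least 2-fold change as well, 9 (10.2%) were lower and 3 were higher. That stands beside 6.89% and 3.82% of named genes, and 9.47% and 5.21% of the brighter ones.

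Coreceptors that bind WNT beside a Frizzled moved both ways. LRP5, the coreceptor of beta-catenin signaling, was at 6.26, 6.27 and 6.14 in OTX2 KD and at 7.17, 7.03 and 6.82 in scramble (log2 fold change -0.78 ± 0.109, SE, adjusted p = 0.00153). The other coreceptor LRP6 had a value of 0.25 (adjusted p = 0.0667). The receptor kinase ROR1 fell (-0.67), as did RYK (-0.66), and ROR2 rose (0.42 ± 0.108, SE, adjusted p = 0.0246). The ROR2 call ended after median centering (adjusted p = 0.0591), and without OTX2 KD replicate 1 (0.0625), OTX2 KD replicate 3 (0.0759), scramble replicate 2 (0.0843) or scramble replicate 3 (0.0747). PTK7 had a value of 0.04 (adjusted p = 0.832). Of the 6 measured 3 fell, 1 rose and 2 did not pass, beside 23.2% of named genes that fell and 16.6% that rose. Of the brighter named genes 31.3% fell and 21.0% rose.

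On the ligand side WLS, which carries WNT proteins to the cell surface for secretion, was at 4.34, 4.50 and 4.51 against 6.45, 6.61 and 6.54. This was a 4.24-fold decrease (log2 fold change -2.08 ± 0.090, SE, adjusted p = 9.14e-06). Of the WNT ligands only WNT2 had a named cluster, with overlapping groups and a log2 fold change of 0.01, and 18 were not analysed here. WNT2 was dim, above only 27.0% to 33.5% of clusters. GPC4, a glypican that holds WNT at the membrane, was 4.28-fold lower, whereas its relative GPC6 rose 1.83-fold, from between 9.22 and 9.31 to between 10.11 and 10.19. TSPAN12, the partner of FZD4 in Norrin signaling, was at 3.88, 3.91 and 4.27 in OTX2 KD and at 5.38, 5.15 and 5.17 in scramble. This was a 2.32-fold fall (adjusted p = 0.000443). Norrin (NDP) lay above only 30.1% to 35.8% of clusters and had a value of 0.07 (adjusted p = 0.7). ADGRA2, a coreceptor for WNT7 ligands, rose 1.45-fold. Of 8 genes in this list 3 fell, 2 rose and 3 did not pass. Beside them 23.2% of named genes fell and 16.6% rose, and 31.3% and 21.0% of the brighter ones.

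R-spondins are secreted proteins that, through LGR receptors, keep the ligases RNF43 and ZNRF3 from removing Frizzled receptors from the surface. RSPO3 was at 6.09, 5.92 and 5.90 in OTX2 KD against 3.34, 3.39 and 3.12, so that it rose by 2.69 ± 0.104 log2 units (SE, adjusted p = 6.58e-06). In scramble RSPO3 was dim, above only 40.9% to 46.2% of clusters, and the size of its rise is uncertain. RSPO1 went the other way, from between 7.03 and 7.08 to between 5.35 and 5.39 (-1.70). The receptors LGR5 (-1.69) and LGR4 (-0.75) fell. The ligases themselves had values of 0.16 (RNF43, adjusted p = 0.378) and -0.16 (ZNRF3, adjusted p = 0.355), with overlapping groups. Of the 10 genes 3 fell, 1 rose and 6 did not pass. Among named genes 23.2% fell and 16.6% rose, and among the brighter ones 31.3% and 21.0%, so that these counts do not stand out.

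Of 19 secreted or membrane antagonists 2 (10.5%) fell, 4 (21.1%) rose and 13 did not pass, beside 23.2% and 16.6% of named genes. FRZB, a secreted protein with a Frizzled-like WNT-binding domain, rose by 0.72 ± 0.114 (SE) on the log2 scale (adjusted p = 0.00275). TMEM88, a membrane protein that binds Dishevelled, rose by 0.62 on the log2 scale. APCDD1 and TPBG, membrane inhibitors of WNT signaling, had log2 fold changes of -1.15 and -0.65. The measured secreted Frizzled-related proteins other than FRZB, SFRP1, SFRP2, SFRP4 and SFRP5, had values between -0.26 and 0.10 and did not pass.

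Inside the cell, the list of Dishevelled, the complex that degrades beta-catenin and its kinases had 10 of 25 genes measured. Their median was 0.15, and 4 rose, 1 fell and 5 missed the threshold, beside 16.6% of named genes that rose and 23.2% that fell. APC2, the relative of the tumor suppressor APC found mainly in neurons, was at 7.47, 7.44 and 7.51 in OTX2 KD and at 5.15, 5.05 and 4.97 in scramble, a 5.33-fold rise (adjusted p = 4.67e-06). The kinase GSK3B rose 1.66-fold and APC 1.42-fold, and FRAT2, which binds GSK3, was 1.56-fold lower. DVL1, DVL2, DVL3 and CTNNB1 (beta-catenin) were not analysed here. Of 15 TCF/LEF factors and cofactors 7 were measured, of which 4 rose, 1 fell and 2 did not pass, beside the same shares of named genes. The beta-catenin cofactor BCL9 rose 1.67-fold and TLE5 1.39-fold, and PYGO2 was 1.18-fold lower (adjusted p = 0.0465). The PYGO2 call was lost after a repeated quantile normalization (adjusted p = 0.0875) and without any 1 of the 6 arrays (0.0756 to 0.133).

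The median of 13 planar cell polarity genes was -0.35, and 7 of them fell (53.8%), 0 rose (0 also at an unadjusted p below 0.05) and 6 missed the threshold. Of all clusters 13.1% fell, of named genes 23.2% and of the brighter ones 31.3%, and 8 of the 21 listed genes were not analysed here. PRICKLE2 was at 4.37, 4.11 and 3.76 in OTX2 KD and at 6.04, 5.97 and 5.94 in scramble (log2 fold change -1.90 ± 0.153, SE, adjusted p = 0.000116), and its dimmer cluster also fell (-1.14). ANKRD6, the relative of the fly gene diego, had a log2 fold change of -1.36, but its dimmer cluster did not pass (0.16, adjusted p = 0.313), and the mean of both clusters gave -0.60. The core members VANGL1, VANGL2 and CELSR1 to CELSR3 were not analysed here. Of 4 measured WNT/calcium genes 0 passed in limma, 1 had an unadjusted p below 0.05 (CAMK2G, 0.0182), and their values lay between -0.31 and 0.20.

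Of 15 measured genes that beta-catenin commonly activates, 2 (13.3%) fell, 3 (20.0%) rose and 10 missed the threshold, and their median was -0.05. These shares stand beside 23.2% of named genes that fell and 16.6% that rose. AXIN2, the most widely used reporter gene of this pathway, was at 5.99, 6.11 and 6.15 in OTX2 KD and at 6.15, 6.31 and 6.23 in scramble, with the groups nearly touching. Its log2 fold change was -0.15 (95% confidence interval -0.36 to 0.06, adjusted p = 0.267). NKD1, CCND1, SP5, ASCL2, ZNRF3, RNF43, NKD2, LEF1 and EPHB3 also did not pass, with values between -0.25 and 0.21. The genes that fell were LGR5 (-1.69) and MYC (-1.46), and those that rose were CD44 (1.39), BMP4 (0.69) and NOTUM (0.43). The 9 measured markers of WNT subgroup medulloblastoma, which share AXIN2, NKD1, LEF1, WIF1, DKK1, DKK2 and DKK4 with these lists, gave 0 calls in either direction in limma, and 1 had an unadjusted p below 0.05 (WIF1, 0.0218). Their summed linear level was 195 to 207 in OTX2 KD and 199 to 206 in scramble, most of it from AXIN2, NKD1 and TNC. WIF1, DKK1, DKK2, DKK4, LEF1 and EMX2 were dim, above at most 36.7% of clusters on any array. A fall of these dim genes could hardly show.

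**Figure D4:**
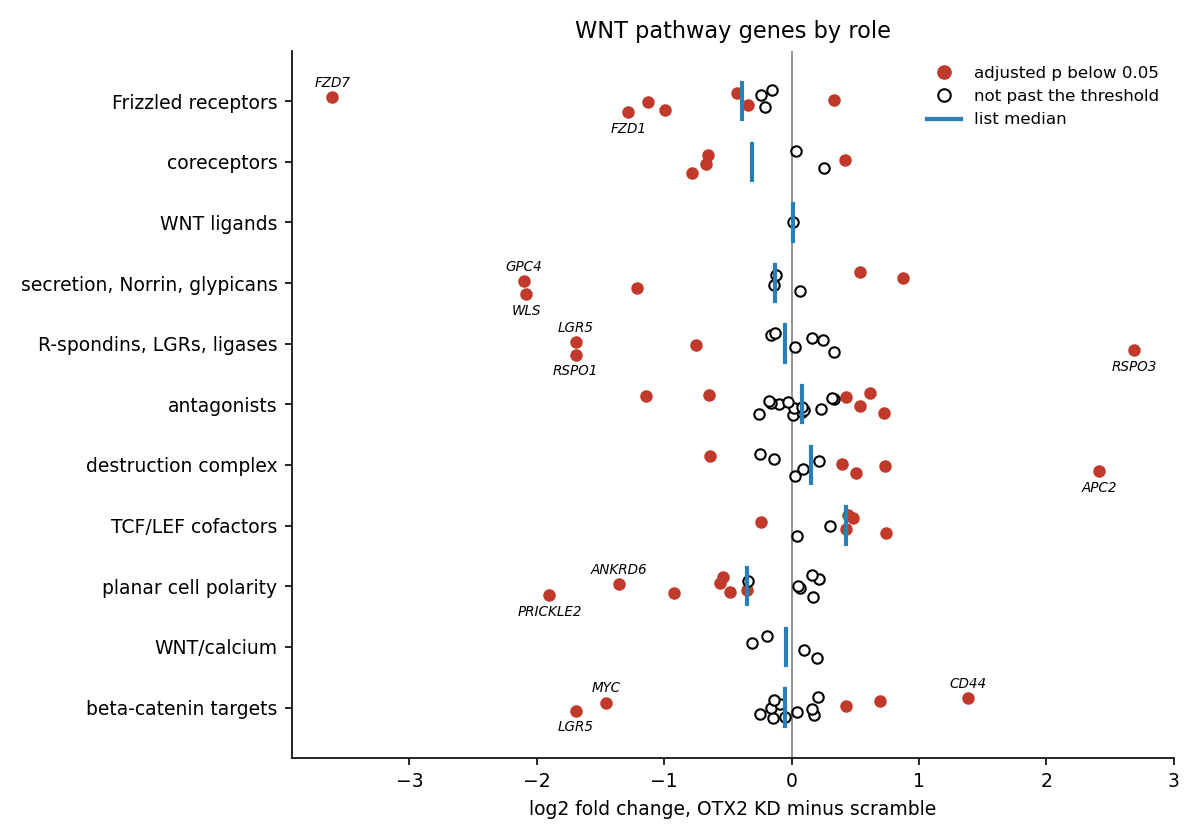
Log2 fold change (OTX2 KD minus scramble, horizontal axis) of each measured WNT pathway gene, grouped by role, filled where the adjusted p was below 0.05, with a blue bar at the median of each list and names at the largest changes. The Frizzled list has its median at -0.39 and FZD7 at -3.61, and the beta-catenin targets have their median at -0.05.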

How the data were processed

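The authors hybridized RNA of 6 D283 tumorsphere cultures to Affymetrix HuGene 2.0 ST arrays and deposited log2 RMA expression values (background correction, quantile normalization, median-polish summary) made with Affymetrix Expression Console. The sources used here state no batch or scan date. Of 53617 clusters 16098 had 1 gene symbol and 37519 had none, and each gene was represented by its brightest cluster.

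Groups came from the sample titles. All clusters were fitted in limma 3.58.1 (R 4.3.3; lmFit, eBayes; 4 residual and 3.17 prior degrees of freedom), without a filter and with Benjamini-Hochberg adjustment. The fit was tested on simulated data. Relatives were compared by exact permutation (scipy 1.17.1). Named genes were OTX2, all Frizzled receptors, the 2 largest rises and falls past the threshold in each list and the 3 genes most like FZD7, and others were named after their values were seen. The members and lists were chosen with earlier results of these data known, and the TAATC search was added after the data were seen. Alternatives covered the replicate block, scaling, filters, variance prior, fold limits, the mean of a gene's clusters and leaving out each array. The number of arrays limits the precision.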

Additional observations from a re-analysis of the deposited data

How the results depend on the processing

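The falls of FZD7, FZD1 and FZD5 kept their direction and stayed past the threshold under all alternatives run, and that of FZD2 under all but the 1.5-fold and 2-fold limits. The number of Frizzled receptors that fell, 6, was 5 to 7 under the other settings, 4 to 6 with 1 array left out, and 3 under the test against a 1.5-fold limit, under the 2-fold limit with an adjusted p and under that limit with an unadjusted p. The number that rose, 1 (FZD6), was 0 under each of these 3 limits, 0 after median centering and 0 to 1 with 1 array left out. Of the 88 other pathway genes 21 fell and 18 rose, but 9 and 3 under each of the 3 limits, which by construction count fewer genes. Without scramble replicate 1 the difference FZD4 minus FZD9 changed sign (-0.057, range over arrays left out -0.057 to 0.18), and the cause was not tested. Over 35 genes named by the rule, 444 of 489 recomputed log2 fold changes stayed on the same side of the threshold, 41 lost the call, 4 gained it and none of them changed sign.

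The values gave no sign of pairing by replicate number, which does not settle whether the cultures were handled in pairs. Deviations of same-numbered arrays from their group means correlated between -0.056 and -0.001 across clusters, and no knockdown array correlated best with the control of its own number. With the replicate number as a block, 5 Frizzled receptors fell and 0 rose, with FZD4 (adjusted p = 0.0551) and FZD6 (adjusted p = 0.0509) no longer called, and 18 pathway genes fell and 17 rose. The call of PYGO2 also ended (adjusted p = 0.118). An exact sign-flip permutation test of the differences between relatives, paired by number, gave p = 0.25 for 7 pairs, the smallest it allows with n = 3, and 0.75 for FZD4 minus FZD9. Signal over background was not in the values used. The size of falls to dim levels, that of FZD7 included, and of rises from them, that of RSPO3 included, is therefore uncertain.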

Other observations

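Markers of other cell types mostly did not pass the test. Summed linear levels were 9.69 to 10.1 in OTX2 KD and 8.03 to 9.76 in scramble for 2 of 8 fibroblast markers, 54.3 to 62.3 and 50.8 to 59.1 for 4 of 6 of endothelium, 21.5 to 24.4 and 19.1 to 24.98 for 2 of 6 of leukocytes, and 32.3 to 34.2 and 29.9 to 34.1 for 3 of 6 of astrocytes. In limma 0 of these genes passed, and 0 had an unadjusted p below 0.05. Of the 4 oligodendrocyte lineage markers measured, of 6, OLIG2 (0.78) and OLIG1 (0.53) rose on the log2 scale, and the summed linear level of the 4 was 120 to 141 in OTX2 KD and 90.9 to 102 in scramble. Their part in the Frizzled changes was not tested. The defining myelin marker MBP had a log2 fold change of -0.06 and SOX10 0.20, neither past the threshold.

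RNAs read from beside Frizzled genes were looked at after the receptor values were seen. FZD10-AS1, transcribed opposite FZD10, was at 3.33, 3.37 and 2.93 in OTX2 KD and at 3.62, 3.44 and 3.40 in scramble (log2 fold change -0.28 ± 0.136, SE, adjusted p = 0.186). FZD4-DT, which diverges from the start of FZD4, had a log2 fold change of -0.24 ± 0.117 (SE, adjusted p = 0.188). CPZ, an enzyme with a Frizzled-like WNT-binding domain, had -0.07 (adjusted p = 0.674), with overlapping groups. None of these 3 passed the test.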
